A study of Mus musculus with 12 samples.

Results

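The expression of 10 genes of lipid uptake, storage and nuclear receptor control was described in mouse bone marrow-derived macrophages (BMDMs): Nr1h3, Pparg, Abca1, Apoe, Apoc1, Apoc2, Lpl, Fabp4, Fabp5 and Plin2. The genes were taken by name, with earlier results of these data known, and all 10 of them were found among the 38739 gene symbols of the expression table. After genes with low values were set aside, 11887 symbols were tested, and all 10 members were among these. RNA sequencing covered 12 samples, 3 in each of 4 groups: WT cells left untreated with media control (WT UT), WT cells given lipopolysaccharide (WT LPS), and cGAS-/- cells under the same pair of conditions (cGAS-/- UT and cGAS-/- LPS). LPS, the outer membrane component of Gram-negative bacteria that is sensed by TLR4, was the E. coli 026:B6 preparation in both genotypes. Sources differ on the treatment, with 150 ng/mL for 24 h and a NextSeq run in the methods but 100 ng/mL for 1 h and a HiSeq run in the labels, where the extraction text also names neutrophils although macrophages are given as the cell type. The mice were male, 8 weeks old and of a C57BL/6J background, WT animals were bought and cGAS-/- animals came from another laboratory, and the cGAS-/- mice lack the DNA sensor cGAS in every cell, so that the strain background, the age and the sex were shared by all groups while the source of the animals was not. Since a legend of the study speaks of technical replicates and the number of mice is not given, p-values measure only the spread between these samples, which need not be that between mice.

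Macrophages take up fatty acids and lipoproteins, store the surplus as neutral lipid in droplets, and release cholesterol to extracellular acceptors. LXRα, the product of Nr1h3, is switched on by oxysterols and drives cholesterol efflux genes such as Abca1 and the cluster of Apoe, Apoc1 and Apoc2, and PPARγ, the product of Pparg, is switched on by fatty acid derivatives and drives lipid handling genes such as Fabp4, Lpl and Plin2, while both receptors bind DNA as partners of RXR and are known to restrain inflammatory genes. In macrophages, signaling through TLR4 is known to change many of these genes.

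Expression was read as TPM, an abundance scaled for transcript length and sample total, here as a mean over the transcripts of each symbol. The file does not name the unit, which rests on the pattern of its values, sequencing depth is unknown, and levels are compared for 1 gene between samples and not between genes. The marker sums below are an exception, as they add values of different genes, and they give only a rough description. Cgas, the targeted gene (GRCm39, chromosome 9, 78337802 to 78350535), ranged from 1.19 to 3.25 TPM over the 6 WT samples and from 0.0703 to 0.291 TPM over the 6 cGAS-/- samples. The samples summed to between 447189 and 503156 TPM except for WT LPS replicate 3, which summed to 709802 TPM and stood apart from the other samples, as protein-coding genes held 18.5% of its total against 39.7% to 54.4% elsewhere. Values without this sample are given beside most results of the members. Macrophage markers were abundant, since the 11 of 14 listed markers found in the table summed to between 25862 and 38018 TPM, whereas the 8 adipocyte markers in the table (of 10 listed, 2 of them also PPAR targets in the list of lipid genes used here) were each under 1 TPM in every sample. Summed stromal markers (9 of 9 in the table) were 10.9 to 14 TPM in WT UT, 6.10 to 19.2 TPM in WT LPS, 3.24 to 5.35 TPM in cGAS-/- UT and 3.52 to 4.53 TPM in cGAS-/- LPS samples, summed neutrophil markers (9 of 10) were 143 to 222, 84.5 to 479, 53.8 to 136 and 394 to 437 TPM in the same order, summed B cell markers (6 of 7) were 65.6 to 98.0, 30.1 to 39.2, 4.32 to 11.1 and 2.65 to 7.59 TPM, and summed erythroid markers (7 of 7) were 4.96 to 9.26, 1.56 to 37.7, 5.08 to 17.9 and 2.72 to 14.7 TPM. The B cell sums did not overlap between genotypes, nor did the stromal sums, whereas the erythroid sums overlapped between all 4 groups. The neutrophil sum of cGAS-/- LPS samples was mostly Lcn2, at a mean of 363 TPM against 89.6 TPM in WT LPS samples, while of the other 8 neutrophil markers 6 had a lower mean there than in WT LPS samples, such as S100a8 (26.4 against 68.8 TPM), and 2 a higher one, such as Camp (3.89 against 3.20 TPM). S100a8 was at 165, 33.2 and 8.43 TPM in the WT LPS samples, a range that holds all cGAS-/- LPS samples. Mpo, Elane, Prtn3 and Ltf were under 1 TPM in every LPS sample. The part of these markers in the results was not tested. The 10 genes of an LPS response list summed to between 59.9 and 165 TPM in the 6 UT samples, to between 7508 and 46371 TPM in WT LPS samples and to between 41090 and 41897 TPM in cGAS-/- LPS samples. Saa3 and Ccl5 had the highest values in the LPS sums, and these 2 genes and Nos2 overlapped between the genotypes. For Il1b (mean 847 against 110 TPM), Il6 (14.3 against 0.801 TPM), Cxcl1, Cxcl2, Cxcl3, Ptgs2 and Il12b, every cGAS-/- LPS sample lay above every WT LPS sample. The sums therefore hide differences between the genotypes in single genes of the list.

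Promoter sequence was read for the members because LXR and PPAR bind pairs of AGGTCA hexamers that point in the same direction, with 4 bases between them for LXR (DR4) and 1 base between them for PPAR (DR1). RefSeq promoter windows were given for 6 of the 10 members, and all 6 matched GRCm39 exactly. Nr1h3 had 2 windows and Pparg and Apoe had 3 each. For these, only the window nearest the start of the main annotated transcript was searched. Each window ends at the start of a RefSeq transcript, which need not be the outer end of the gene, as the windows of Nr1h3, Pparg and Apoe lie inside the annotated genes and those of Abca1, Apoc2 and Plin2 reach into them. Of these, the windows of Pparg and Apoe lay wholly within annotated exons and are not printed, and the others are shown where they lie outside every annotated exon, 5′ to 3′ on the strand of the gene, in lower case with capitals for TATAAA and for DR4 or DR1 letters with at most 3 mismatches in the 12 bases of both hexamers.
Nr1h3 (chr2:91025570-91025711, minus strand): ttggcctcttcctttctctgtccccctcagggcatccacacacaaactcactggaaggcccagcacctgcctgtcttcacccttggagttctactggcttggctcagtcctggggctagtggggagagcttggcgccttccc
Abca1 (chr4:53159901-53160145, minus strand): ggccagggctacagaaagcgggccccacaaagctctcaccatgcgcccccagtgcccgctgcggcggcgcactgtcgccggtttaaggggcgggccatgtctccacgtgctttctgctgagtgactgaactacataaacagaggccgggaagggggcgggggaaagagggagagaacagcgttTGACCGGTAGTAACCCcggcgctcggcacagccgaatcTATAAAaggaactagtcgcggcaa
Apoc2 (chr7:19411878-19412004, minus strand): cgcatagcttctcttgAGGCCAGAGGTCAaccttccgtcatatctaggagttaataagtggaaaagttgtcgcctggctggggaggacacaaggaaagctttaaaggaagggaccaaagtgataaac
Plin2 (chr4:86588460-86588546, minus strand): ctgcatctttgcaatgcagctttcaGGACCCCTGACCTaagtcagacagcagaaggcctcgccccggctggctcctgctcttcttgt
No exact DR4 or DR1 was found on either strand of the 250 bases before these transcript starts in any of the 6 members, and over all 32851 RefSeq windows of this length 0.0152% held an exact DR4 and 0.0335% an exact DR1. With positions counted from the same transcript starts, Abca1 held a DR4 with 3 mismatches on the reverse strand from -67 to -52 and TATAAA from -29 to -24. Apoc2 held a DR1 with 1 mismatch from -122 to -110, which includes an intact AGGTCA. Plin2 held a DR1 with 2 mismatches on the reverse strand from -225 to -213, which also includes an intact AGGTCA, and another with 3 mismatches from -161 to -149, the latter outside the printed stretch. For Pparg an AGGTCA lay from -9 to -4 and a reversed TATAAA from -29 to -24, for Apoe a DR1 with 3 mismatches lay from -28 to -16, and the Nr1h3 window held none of these letters. The search with mismatches was added after the others were chosen. At this tolerance 18.5% of all windows held a DR4 and 21.3% a DR1, while 14% held an AGGTCA and 12.4% TATAAA. These matches therefore describe letters only, and whether any of them is bound was not tested.

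With LPS, Nr1h3 rose and Pparg, Lpl, Fabp4 and Apoe fell in both genotypes, whereas Abca1, Apoc1, Apoc2, Fabp5 and Plin2 did not pass the test in either. Lpl had the largest change of the members in WT cells in the fit to all 12 samples. The test was limma on log2(TPM + 1) with a spread shared by all 12 samples and Benjamini-Hochberg adjustment over all 11887 genes, at an adjusted p under 0.05. In WT cells 1 member was higher and 4 were lower with LPS, against 4.31% and 23.3% of all genes tested, and in cGAS-/- cells again 1 was higher and 4 were lower, against 4.76% and 9.06% of all genes. Of these, 3 members in each genotype also moved by more than 2 on the log2 scale, against 4.32% of genes in WT and 3.5% in cGAS-/- cells, and they were Pparg, Lpl and Fabp4 in both. The log2 fold changes of the 10 members had a median of -0.94 in WT cells beside -0.46 for all genes, and of -0.95 in cGAS-/- cells beside -0.20 for all genes. The members' median in WT cells without WT LPS replicate 3 was -0.47 beside -0.29 for all genes. With TMM factors, which rescale every sample by a trimmed mean of its gene-wise log ratios, the median was -0.26 for the members and -0.09 for all genes in WT cells and -0.76 and -0.02 in cGAS-/- cells, the genes that passed in WT cells went from 512 higher and 2774 lower to 921 higher and 1454 lower, those in cGAS-/- cells from 566 higher and 1077 lower to 803 higher and 819 lower, and members passing went to 1 higher and 3 lower in WT and to 2 higher and 4 lower in cGAS-/- cells. Without WT LPS replicate 3, 6 members passed in WT cells, against 34.7% of all genes, and 8 in cGAS-/- cells, against 30.8% of all genes. In bulk RNA, fewer cells that express a gene and less of its RNA per cell cannot be told apart.

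**Figure D1:**
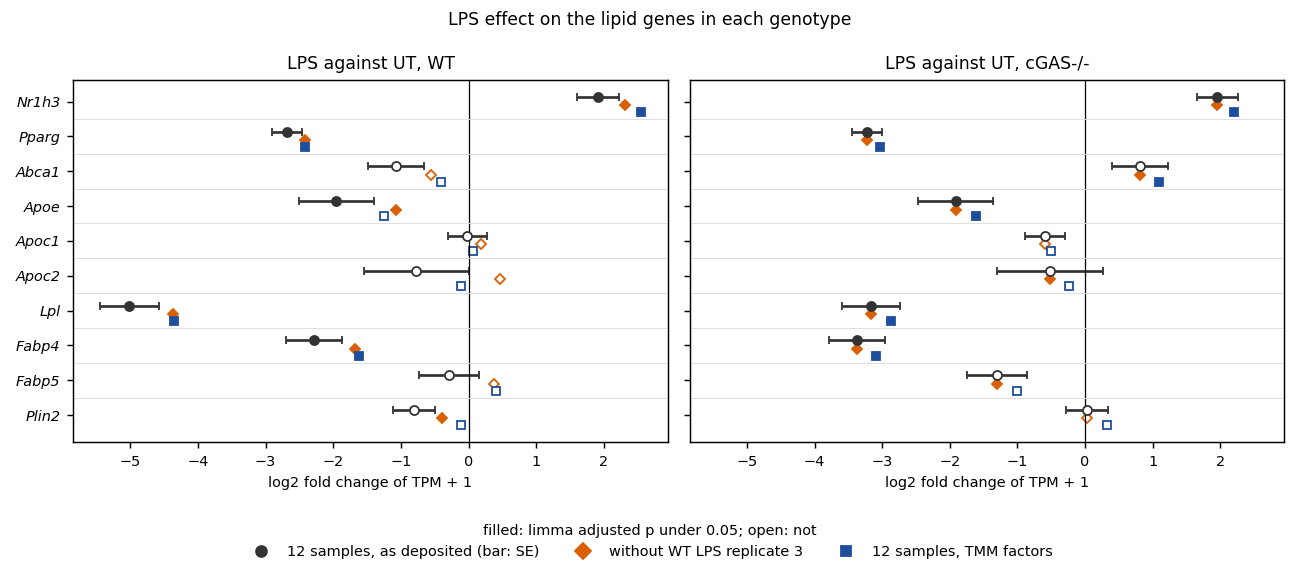
Log2 fold change of TPM + 1 with LPS for the 10 members in WT (left) and cGAS-/- cells (right). Circles with bars are the fit to all 12 samples with its standard error, diamonds leave out WT LPS replicate 3, squares use TMM factors, and filled symbols passed an adjusted p under 0.05. Nr1h3 lies to the right of 0 and Pparg, Lpl and Fabp4 to the left with filled symbols throughout, while Apoc1, Apoc2 and Fabp5 in WT cells lie on the other side of 0 when the sample is left out.

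Among the nuclear receptors, Nr1h3 (chromosome 2, 91014394 to 91033417 of GRCm39), which encodes LXRα, stood at 5.10, 4.0 and 4.96 TPM in WT UT and at 26.5, 28.0 and 11.2 TPM in WT LPS replicates 1, 2 and 3. In cGAS-/- cells it stood at 3.57, 4.04 and 3.09 TPM in UT and at 16.7, 16.9 and 16.3 TPM in LPS samples. All 6 LPS samples lay above all 6 UT samples, and the third WT LPS replicate was the lowest of the LPS samples. The log2 fold change with LPS was 1.91 ± 0.31 (SE) in WT cells (limma adjusted p = 0.0012) and 1.96 ± 0.31 in cGAS-/- cells (limma adjusted p = 0.0014), which is 2.37 and 2.16 above the median of all genes. In WT cells without WT LPS replicate 3 it was 2.32 (limma adjusted p = 1.1e-06). Its rise passed in 23 of 24 alternative settings in WT cells, the exception being the fit to the 6 samples compared (limma adjusted p = 0.052), and in 24 of 24 in cGAS-/- cells.

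Pparg (chromosome 6, 115337675 to 115468268), which encodes PPARγ, moved the other way. It was at 9.16, 7.99 and 8.47 TPM in WT UT and at 0.689, 0.874 and 0.0413 TPM in WT LPS samples. The cGAS-/- values were 11.5, 10.7 and 10.3 TPM in UT and at 0.212, 0.250 and 0.323 TPM in LPS samples. Every LPS sample was under 1 TPM and every UT sample above 7 TPM, and the 3 cGAS-/- UT samples lay above the 3 WT UT samples. Pparg fell by 2.68 ± 0.22 (SE) on the log2(TPM + 1) scale in WT cells (limma adjusted p = 1.5e-05) and by 3.23 ± 0.22 in cGAS-/- cells (limma adjusted p = 4.6e-06), the value in WT cells was -2.42 without WT LPS replicate 3 (limma adjusted p = 5.1e-07), and both falls passed in 24 of 24 alternative settings. As the LPS levels are below 1 TPM, the added 1 makes these values smaller than the change in TPM itself.

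Abca1 (chromosome 4, 53030787 to 53159900), the transporter that hands cholesterol to lipid-poor apolipoproteins, was at 49.4, 39.0 and 32.2 TPM in WT UT and at 18.8, 37.8 and 8.45 TPM in WT LPS samples. Its cGAS-/- values were 21.2, 20.5 and 22 TPM in UT and at 37.0, 38.9 and 38.3 TPM in LPS samples. The groups overlapped in WT cells, where the LPS samples were widely spread, but not in cGAS-/- cells, where every LPS sample lay above every UT sample. The log2 fold change was -1.07 ± 0.41 (SE) in WT cells (limma adjusted p = 0.075) and 0.81 ± 0.41 in cGAS-/- cells (limma adjusted p = 0.26), and neither passed. In cGAS-/- cells the same difference passed without WT LPS replicate 3 (limma adjusted p = 0.022), with TMM factors (1.09, limma adjusted p = 0.0094) and in the fit to the 6 samples compared (limma adjusted p = 4.8e-05). In WT cells it passed without WT LPS replicate 2 (-1.57, limma adjusted p = 0.0024), where 48.7% of all genes passed, and was -0.55 without WT LPS replicate 3 (limma adjusted p = 0.12).

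Apoe, Apoc1 and Apoc2 encode apolipoproteins that are carried on lipoprotein particles, and they lie close together on chromosome 7 (19430034 to 19434947, 19422540 to 19427328 and 19405504 to 19411877), with 2705 bases between Apoc1 and Apoe and 10662 bases between Apoc2 and Apoc1. Apoe, the ligand for receptor uptake of lipoprotein remnants, was at 4174, 3801 and 3984 TPM in WT UT and at 2028, 1779 and 298 TPM in WT LPS samples, and in cGAS-/- cells it was at 2794, 2860 and 2623 TPM in UT and at 732, 737 and 730 TPM in LPS samples. Within each genotype all LPS samples lay below all UT samples, and WT LPS replicate 3 was the lowest of all samples. Apoe fell by 1.96 ± 0.56 (SE) on the log2 scale in WT cells (limma adjusted p = 0.024) and by 1.91 ± 0.56 in cGAS-/- cells (limma adjusted p = 0.043). The fall in WT cells without WT LPS replicate 3 was -1.07 (limma adjusted p = 9.5e-06), and with TMM factors it was -1.26 and did not pass (limma adjusted p = 0.053). The call in WT cells was lost when any 1 of the WT UT replicates was left out (limma adjusted p up to 0.0697), and the call in cGAS-/- cells when any 1 of the 9 samples other than the WT LPS replicates was left out (limma adjusted p up to 0.117).

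Apoc1, whose product activates LCAT and inhibits lipoprotein clearance, was low throughout. It was at 0.130, 0.800 and 0.227 TPM in WT UT, at 0.415, 0.692 and 0 TPM in WT LPS, at 1.04, 1.07 and 0.265 TPM in cGAS-/- UT and at 0, 0.559 and 0 TPM in cGAS-/- LPS samples, so that all groups of the same genotype or treatment overlapped and 3 samples were listed at 0. It was tested only because the filter rescaled each sample to a common total, and no comparison of it passed in the fit to all 12 samples, with limma adjusted p from 0.24 to 1. Its log2 fold change with LPS in WT cells was -0.02 in the 12 samples and 0.19 without WT LPS replicate 3 (limma adjusted p = 0.65).

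Apoc2, the cofactor that lipoprotein lipase needs for its activity, was at 70.1, 60.3 and 68.7 TPM in WT UT and at 117, 72.5 and 6.06 TPM in WT LPS samples. Its cGAS-/- values were 49.9, 46.3 and 40.4 TPM in UT and at 30.8, 34.1 and 29.2 TPM in LPS samples. In WT cells replicates 1 and 2 with LPS lay above every UT sample and replicate 3 below every one, whereas in cGAS-/- cells all LPS samples lay below all UT samples. The log2 fold change was -0.77 ± 0.78 (SE) in WT cells (limma adjusted p = 0.47) and -0.52 ± 0.78 in cGAS-/- cells (limma adjusted p = 0.76). Without WT LPS replicate 3 it was 0.47 in WT cells (limma adjusted p = 0.078), and the difference in cGAS-/- cells passed (limma adjusted p = 0.040). Transcripts of Apoc2 share 81.1% of their length at 100% identity with Apoc2l, which is not used here, so reads from the shared stretch cannot be assigned to either gene.

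Lpl (chromosome 8, 69284603 to 69360100) encodes lipoprotein lipase, which frees fatty acids from lipoprotein triglycerides. It was at 519, 517 and 507 TPM in WT UT and at 20.8, 27.3 and 5.6 TPM in WT LPS samples. Its cGAS-/- values were 591, 615 and 577 TPM in UT and at 68.5, 61.6 and 66.2 TPM in LPS samples. The 4 groups did not overlap, with cGAS-/- UT highest, then WT UT, then cGAS-/- LPS and then WT LPS. Lpl fell by 5.01 ± 0.43 (SE) on the log2 scale in WT cells (limma adjusted p = 2e-05) and by 3.17 ± 0.43 in cGAS-/- cells (limma adjusted p = 5e-04), or 4.38 in WT cells without WT LPS replicate 3 (limma adjusted p = 2e-08). Both falls passed in 24 of 24 alternative settings.

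Fabp4 and Fabp5 encode cytosolic fatty acid-binding proteins and lie on chromosome 3 (10268785 to 10273737 and 10077602 to 10081674) with 187110 bases between them. Fabp4 was at 75.7, 80.8 and 77.9 TPM in WT UT, at 26.5, 21.0 and 6.11 TPM in WT LPS, at 70.1, 69.6 and 88.5 TPM in cGAS-/- UT and at 6.36, 5.87 and 7.07 TPM in cGAS-/- LPS samples. All LPS samples lay below all UT samples, and WT LPS replicates 1 and 2 lay above the 3 cGAS-/- LPS samples while replicate 3 lay among them. Fabp4 fell by 2.28 ± 0.42 (SE) on the log2 scale in WT cells (limma adjusted p = 0.0027) and by 3.37 ± 0.42 in cGAS-/- cells (limma adjusted p = 2.5e-04). The fall in WT cells was -1.68 without WT LPS replicate 3 (limma adjusted p = 1.8e-05) and passed in 23 of 24 settings, the exception being the 6 samples compared (limma adjusted p = 0.061), and the fall in cGAS-/- cells passed in all 24.

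Fabp5 was at 413, 450 and 418 TPM in WT UT and at 678, 451 and 139 TPM in WT LPS samples, so that replicates 1 and 2 with LPS lay above every WT UT sample and replicate 3 below them. In cGAS-/- cells it was at 398, 372 and 369 TPM in UT and at 149, 152 and 160 TPM in LPS samples, which did not overlap. The log2 fold change was -0.29 ± 0.45 (SE) in WT cells (limma adjusted p = 0.64) and -1.30 ± 0.45 in cGAS-/- cells (limma adjusted p = 0.083). Without WT LPS replicate 3 it was 0.37 in WT cells (limma adjusted p = 0.076), and the difference in cGAS-/- cells passed (limma adjusted p = 4.8e-05). It also passed there in the fit to the 6 samples compared (limma adjusted p = 8.9e-06), but not with TMM factors (-1.01, limma adjusted p = 0.064). Fabp5 transcripts share 33.8% to 41.1% of their length with 5 other annotated genes at 93.6% to 98.3% identity, of which Gm6100 and Gm13998 were listed at 0 in every sample and Gm6166 reached 4.17 TPM in a WT LPS sample.

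Plin2 (chromosome 4, 86565912 to 86588459) encodes perilipin 2, a coat protein of lipid droplets. It was at 345, 341 and 352 TPM in WT UT and at 233, 297 and 111 TPM in WT LPS samples. Its cGAS-/- values were 167, 171 and 172 TPM in UT and at 172, 171 and 180 TPM in LPS samples. The WT LPS samples lay below the WT UT samples, and the 6 cGAS-/- samples lay together between 167 and 180 TPM with and without LPS. The log2 fold change was -0.81 ± 0.31 (SE) in WT cells (limma adjusted p = 0.074) and 0.03 ± 0.31 in cGAS-/- cells (limma adjusted p = 0.97). Without WT LPS replicate 3 the value in WT cells was -0.40 and passed (limma adjusted p = 0.015), whereas with TMM factors it was -0.11 (limma adjusted p = 0.64). Plin2 shares 30.4% of its transcript with Gm12551 at 96.4% identity, which stayed between 0 and 1.62 TPM.

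**Figure D2:**
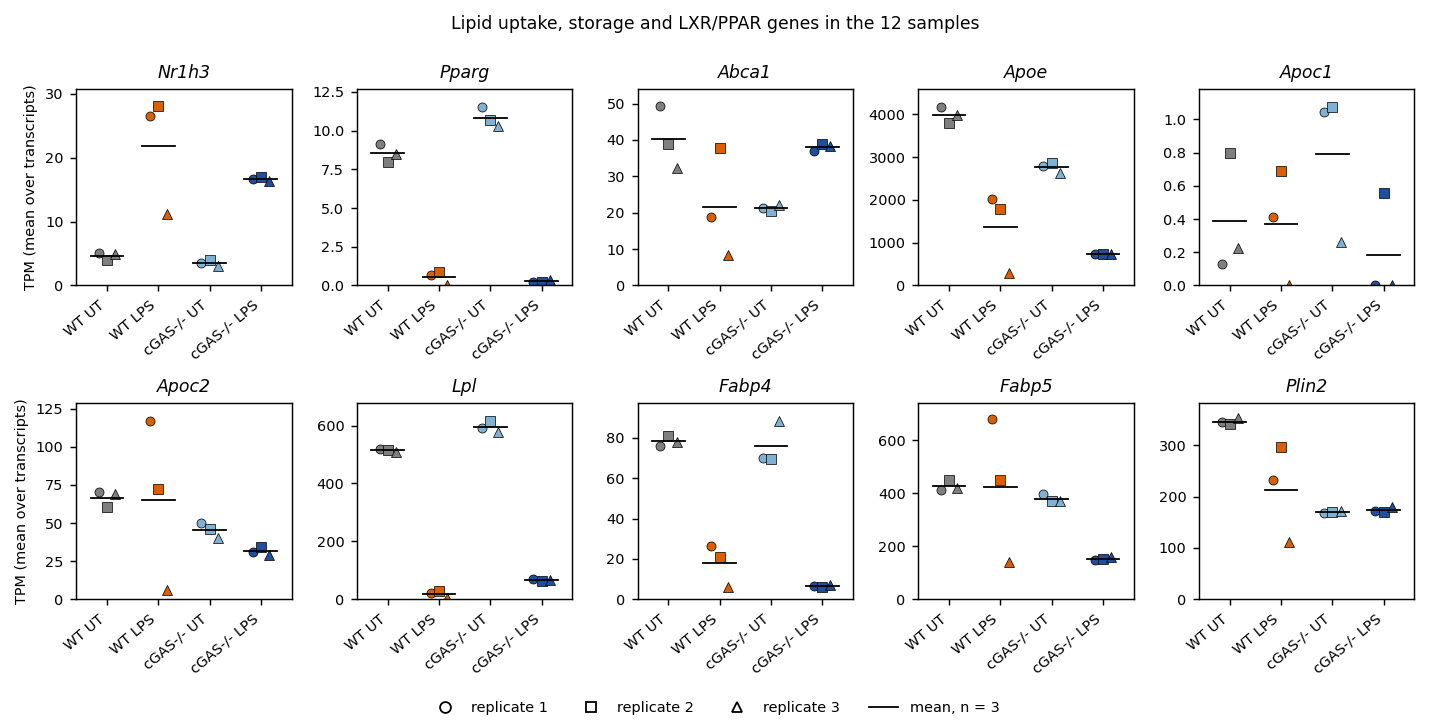
TPM of each member in the 12 samples by group, 1 panel a gene with its own axis from 0. Symbols are the replicates and lines the means of 3 samples. WT LPS replicate 3 (triangle) is the lowest of its group in all 10 panels, and the cGAS-/- LPS samples lie close together for Plin2, between 171 and 180 TPM, but not for Apoc1. Protein-coding genes held 18.5% of the total of WT LPS replicate 3, and how many of all genes are lowest in it was not counted.

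Before LPS, the genotypes were compared at baseline, and since the animals of each genotype had their own source, cGAS loss and source cannot be told apart. None of the 10 members passed in the fit to all 12 samples, while among all genes tested 0.252% were higher in cGAS-/- cells and 1.58% lower, and 0.37% passed with a log2 fold change beyond 2. At an unadjusted p under 0.05 limma gave 1 member, Plin2, against 8.08% of all genes. Plin2 averaged 170 ± 2.26 TPM (SD, n = 3) in cGAS-/- and 346 ± 5.65 TPM in WT UT samples, a log2 fold change of -1.02 ± 0.31 (SE, limma adjusted p = 0.20). This difference passed without WT LPS replicate 3 (limma adjusted p = 1.8e-04), in the fit to the 6 UT samples (limma adjusted p = 1.1e-04) and with TMM factors (-0.99, limma adjusted p = 0.0083). The shared spread includes the WT LPS samples, which were spread more widely than the UT samples that this comparison is about.

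Without WT LPS replicate 3, 2 members were lower in cGAS-/- UT than in WT UT samples, against 5.33% of all genes in either direction, and they were Plin2 and Apoe. Apoe averaged 2759 ± 122 TPM (SD, n = 3) against 3986 ± 187 TPM in WT UT samples, a log2 fold change of -0.53 ± 0.56 (SE) in the 12 samples (limma adjusted p = 1) and of the same size without the sample (limma adjusted p = 0.0024). In the fit to the 6 UT samples 5 members passed, against 10.4% of all genes. Abca1 was lower in cGAS-/- cells there (-0.87, limma adjusted p = 0.022), as were Apoc2 (-0.54, limma adjusted p = 0.026), Apoe (limma adjusted p = 0.0039) and Plin2, and Lpl was higher (0.21, limma adjusted p = 0.022). Nr1h3 (-0.32), Pparg (0.31), Fabp4 (-0.05), Fabp5 (-0.17) and Apoc1 (0.37) did not pass in these fits, and Pparg reached limma adjusted p = 0.058 in the 6 samples.

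With LPS, the genotypes were compared under stimulation, again with the source of the animals differing between them, and Lpl was the 1 member that passed. It averaged 65.4 ± 3.51 TPM (SD, n = 3) in cGAS-/- LPS and 17.9 ± 11.1 TPM in WT LPS samples, a log2 fold change of 2.06 ± 0.43 (SE, limma adjusted p = 0.035), which is 1.86 above the median of all genes (0.20, or 0.04 with TMM factors). Thus 1 member was higher and 0 were lower, against 1.36% and 1% of all genes tested, and 1 was beyond 2 on the log2 scale, against 0.614% of genes. At an unadjusted p under 0.05 limma gave 4 members, namely Lpl, Abca1, Fabp4 and Fabp5, against 18.8% of all genes. The difference in Lpl passed in 12 of 24 alternative settings, with values from 1.37 to 2.47. It was 1.42 without WT LPS replicate 3 (limma adjusted p = 7.1e-05) and 1.72 with TMM factors (limma adjusted p = 0.0049), and it was lost in the fit to the 6 samples compared (limma adjusted p = 0.44), with no filter, with a replicate block (limma adjusted p = 0.0530) and without any 1 of the 9 samples that are not WT LPS replicates (limma adjusted p up to 0.14).

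Fabp4 and Fabp5 lay on the other side, although neither passed in the 12 samples. Fabp4 averaged 6.44 ± 0.601 TPM (SD, n = 3) in cGAS-/- LPS and 17.9 ± 10.6 TPM in WT LPS samples, a log2 fold change of -1.13 ± 0.42 (SE, limma adjusted p = 0.19), and Fabp5 averaged 154 ± 5.90 TPM against 423 ± 271 TPM, a log2 fold change of -1.18 ± 0.45 (SE, limma adjusted p = 0.20). With TMM factors both passed (-1.48, limma adjusted p = 0.016, and -1.56, limma adjusted p = 0.024). Both also passed without WT LPS replicate 3 (-1.73, limma adjusted p = 8.7e-05, and -1.84, limma adjusted p = 7.1e-05). Abca1 was at 1.01 ± 0.41 (SE, limma adjusted p = 0.23) in the 12 samples and at 0.50 without that sample (limma adjusted p = 0.28), and it passed without WT LPS replicate 2 (1.51, limma adjusted p = 0.0070), where 27.9% of all genes passed.

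With WT LPS replicate 3 left out, 8 members passed between the genotypes with LPS, against 8.28% of all genes in either direction. Lpl was higher in cGAS-/- cells and the other 7 were lower, namely Fabp4, Fabp5, Apoe (-1.37, limma adjusted p = 1.1e-05), Apoc2 (-1.53, limma adjusted p = 0.0011), Nr1h3 (-0.68, limma adjusted p = 0.011), Plin2 (-0.59, limma adjusted p = 0.0072) and Pparg (-0.50, limma adjusted p = 0.030). In the 12 samples their log2 fold changes were -0.48 ± 0.56 (SE) for Apoe, -0.29 ± 0.78 for Apoc2, -0.27 ± 0.31 for Nr1h3, -0.18 ± 0.31 for Plin2 and -0.24 ± 0.22 for Pparg, none of which passed. WT LPS replicates 1 and 2 lay above all 3 cGAS-/- LPS samples for Nr1h3, Pparg, Apoe, Apoc2, Fabp4, Fabp5 and Plin2 and below them for Lpl, whereas WT LPS replicate 3 lay below the cGAS-/- LPS mean for each of these 8 genes. These are the 8 that passed without WT LPS replicate 3, and how many of all genes lay in this arrangement was not counted. TMM factors raised the values of this sample more than those of any other sample, and its rescaled values were 24.2 TPM for Nr1h3, 647 TPM for Apoe, 12.2 TPM for Lpl, 13.3 TPM for Fabp4, 302 TPM for Fabp5 and 240 TPM for Plin2, which moved it above the rescaled cGAS-/- LPS samples for Nr1h3, Fabp4, Fabp5 and Plin2 but not for Pparg, Apoe or Apoc2.

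**Figure D3:**
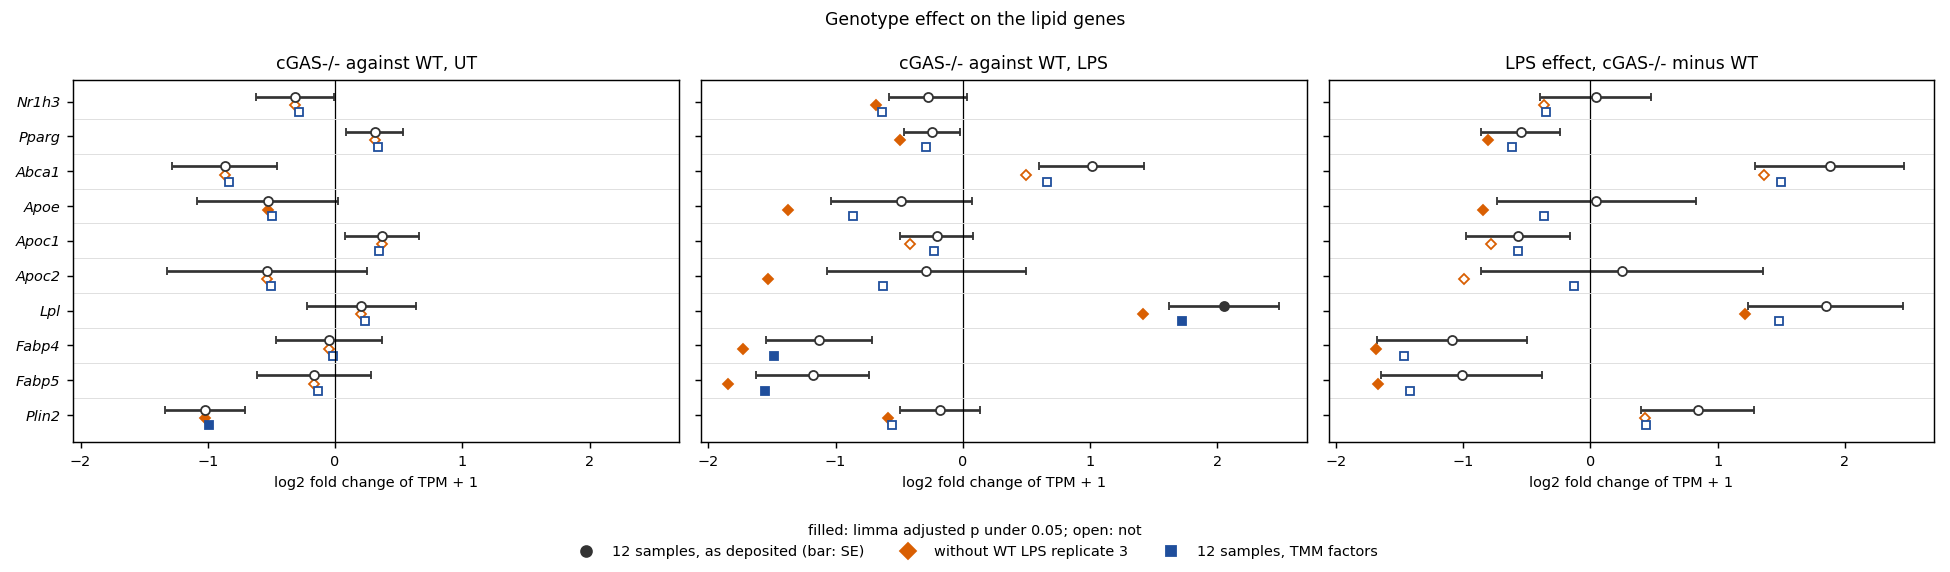
Log2 fold change of TPM + 1 for the 10 members between cGAS-/- and WT cells in UT (left) and LPS (middle) samples, and the LPS effect in cGAS-/- minus that in WT cells (right). Symbols are as for the plot of the LPS effect, with bars for the standard error in the 12 samples. Lpl with LPS is the only filled circle, and leaving out WT LPS replicate 3 fills 2, 8 and 5 diamonds from left to right.

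Whether LPS acted differently in the genotypes was tested by the interaction term, which is the LPS effect in cGAS-/- minus that in WT cells, and its median over all genes was 0.27, or 0.07 with TMM factors. None of the 10 members passed, while 0.732% of all genes tested were higher, 0.168% lower and 0.404% passed beyond 2. At an unadjusted p under 0.05 limma gave 2 members, Abca1 (1.88 ± 0.59, SE, limma adjusted p = 0.24) and Lpl (1.85 ± 0.61, limma adjusted p = 0.27), against 11.1% of all genes. The values of Fabp4 (-1.09 ± 0.59), Fabp5 (-1.01 ± 0.63), Pparg (-0.55 ± 0.31) and Apoe (0.05 ± 0.79) in the 12 samples had limma adjusted p from 0.54 to 0.98. Without WT LPS replicate 3, 5 members passed, against 4.56% of all genes. The fall of Lpl was then smaller in cGAS-/- than in WT cells (1.21, limma adjusted p = 0.0022), and the fall was larger for Fabp4 (-1.68, limma adjusted p = 0.0013), Apoe (-0.84, limma adjusted p = 0.0027) and Pparg (-0.81, limma adjusted p = 0.021), so that leaving out this 1 sample turned the sign for Apoe. For Fabp5 the interaction was -1.67 (limma adjusted p = 0.0016), where its LPS effect in WT cells had not passed. Nr1h3 (0.04 in the 12 samples and -0.36 without WT LPS replicate 3) and Apoc2 (0.25 and -0.99) also turned sign, and neither passed. Abca1 stood at 1.36 without that sample (limma adjusted p = 0.055), and it passed together with Lpl without WT LPS replicate 2 (2.38, limma adjusted p = 0.010), where 12.6% of all genes passed. With TMM factors and all 12 samples none passed, and Abca1 was nearest (1.5, limma adjusted p = 0.069).

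To place the members among other genes of the same pathways, 72 further lipid genes in 6 roles were taken from a list, of which 49 were in the table and 42 were tested. With LPS 3 of the 42 were higher and 19 lower in WT cells, against 4.31% and 23.3% of all genes, and 5 were higher and 11 lower in cGAS-/- cells, against 4.76% and 9.06%. Their median log2 fold change was -0.58 in WT and -0.37 in cGAS-/- cells, beside -0.46 and -0.20 for all genes, and with TMM factors it was -0.11 and -0.17 beside -0.09 and -0.02 for all genes. With TMM factors the split was 6 higher and 14 lower in WT cells, against 7.75% and 12.2% of all genes, and 6 higher and 11 lower in cGAS-/- cells, against 6.76% and 6.89%. Higher in both genotypes were Cebpb, a C/EBP transcription factor induced by inflammation, Acsl1, an acyl-CoA synthetase, and Msr1, the scavenger receptor SR-A. When WT LPS replicate 3 was left out, 8 were higher and 20 lower in WT cells, against 8.26% and 26.5% of all genes, and 6 were higher and 18 lower in cGAS-/- cells, against 9.19% and 21.6%.

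Among those with samples that did not overlap, Cebpa, a C/EBP factor that works with PPARγ in differentiation, fell by 3.75 ± 0.56 (SE) on the log2 scale in WT cells (77.7 to 6.67 TPM, limma adjusted p = 7.9e-04) and by 3.06 ± 0.56 in cGAS-/- cells (limma adjusted p = 0.0035). Of 6 LXR targets tested, 5 were lower in WT and 3 in cGAS-/- cells with LPS and 0 were higher in either (5 lower and 1 higher in WT cells without WT LPS replicate 3), beside 23.3% of all genes lower in WT and 9.06% in cGAS-/- cells. Among them were Arl4c at -3.11 ± 0.37 (29.3 to 2.92 TPM, limma adjusted p = 1.7e-04) and Mylip, which encodes a ubiquitin ligase for the LDL receptor, at -2.77 ± 0.39 (26.7 to 3.72 TPM, limma adjusted p = 5.0e-04) in WT cells. In cGAS-/- cells Arl4c was at -3.22 ± 0.37 (limma adjusted p = 1.4e-04) and Mylip at -2.60 ± 0.39 (limma adjusted p = 9.5e-04). The values in WT cells without WT LPS replicate 3 were -2.89 for Cebpa, -2.59 for Arl4c and -2.27 for Mylip, and all 3 passed (limma adjusted p up to 5.3e-05). These falls of LXR targets stood beside the rise of Nr1h3 in the same samples. Of 6 PPAR targets tested, 1 was higher and 2 were lower in WT cells, against 4.31% and 23.3% of all genes. In cGAS-/- cells 1 was higher and 1 lower, against 4.76% and 9.06%. Without WT LPS replicate 3, 3 were higher and 2 lower in WT cells, against 8.26% and 26.5%. With TMM factors Srebf1 (-0.28, limma adjusted p = 0.31) and Lpcat3 (-0.04, limma adjusted p = 0.93), LXR targets of lipid synthesis and phospholipid remodeling that were lower in WT cells before it, no longer passed, and these 2 genes were named after their values were seen.

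Acsl1 was at 12.1, 26.1 and 4.23 TPM in WT LPS and at 42.4, 41.3 and 41.7 TPM in cGAS-/- LPS samples, against 2.15 to 2.46 TPM in WT UT and 2.87 to 3.11 TPM in cGAS-/- UT samples. It rose by 3.42 ± 0.45 (SE) on the log2 scale in cGAS-/- cells (limma adjusted p = 3.7e-04) and by 1.88 ± 0.45 in WT cells (limma adjusted p = 0.011), and every LPS sample lay above every UT sample, with a value of 2.50 in WT cells without WT LPS replicate 3 (limma adjusted p = 4.2e-05). Cyp27a1, the sterol 27-hydroxylase that makes an oxysterol ligand of LXR, was at 27.0, 27.9 and 26.5 TPM in WT UT and at 11.1, 11.5 and 8.85 TPM in cGAS-/- UT samples, which did not overlap. It was lower in cGAS-/- UT cells by a log2 fold change of -1.30 ± 0.26 (SE, limma adjusted p = 0.025), and with LPS it fell by 3.32 ± 0.26 in WT cells to 1.94 TPM (limma adjusted p = 9.2e-06) and by 2.52 ± 0.26 in cGAS-/- cells to 0.993 TPM (limma adjusted p = 6.6e-05). The value of Cyp27a1 in WT cells without WT LPS replicate 3 was -3.02 (limma adjusted p = 3.7e-07) and its difference in UT cells had limma adjusted p = 2.4e-04. Mgll, which encodes monoglyceride lipase, was the other of the 2 lipid genes of 42 that passed between genotypes in UT cells, where 1.83% of all genes did (2 higher and 5 lower without WT LPS replicate 3, against 5.33% of all genes), at a mean of 0.138 TPM in cGAS-/- and 0.906 TPM in WT samples (-0.73 ± 0.15, limma adjusted p = 0.040), and it passed without WT LPS replicate 3 (limma adjusted p = 0.023) but not with TMM factors (limma adjusted p = 0.053). With LPS none of the 42 passed between genotypes or in the interaction by limma, where 9 and 9 had an unadjusted p under 0.05, against 18.8% and 11.1% of all genes. At an adjusted p under 0.05, 3 of them (1 higher, 2 lower) passed between genotypes with TMM factors, against 4.14% of all genes. Leaving out WT LPS replicate 3 gave 8 between genotypes, against 8.28% of all genes, and 4 in the interaction, against 4.56%.

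**Figure D4:**
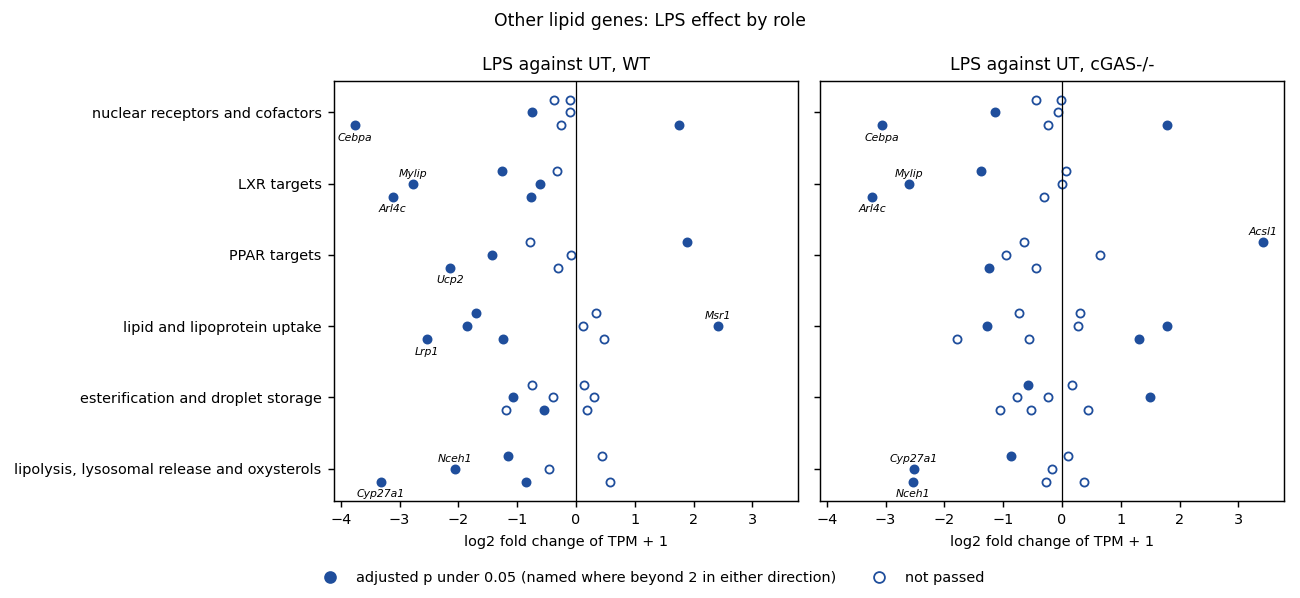
Log2 fold change of TPM + 1 with LPS for the 42 other lipid genes tested, by role, in WT (left) and cGAS-/- cells (right), 1 point a gene. Filled points passed an adjusted p under 0.05 in the 12 samples and are named where they moved by more than 2. Cebpa, Arl4c, Mylip, Cyp27a1 and Nceh1 lie to the left of -2 in both panels, and Acsl1 lies farthest to the right in cGAS-/- cells at 3.42.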

How the data were processed

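RNA of 12 BMDM samples was sequenced, and the values used are those that the authors deposited as 1 table of gene symbols by samples. The deposited values were taken as TPM, which the authors had made from their reads before deposit. The unit is not named in the file. This reading rests on the values, since a factor particular to each gene (11 for Apoe) restored rounded values in many samples (7 of 12 for Apoe), which a mean of TPM over the transcripts of a symbol would give. Before any factor, 0 of 12 values were rounded in this sense for Apoe, 2 for Pparg, 3 for Apoc2 and 7 for Cgas. The labels' processing notes name fastp, STAR, kallisto and GRCm39, with no order or version. Read counts and depth are unknown, so no counting interval is given. No column was left without a sample.

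Genes with at least 1 TPM in at least 3 samples, after each sample was rescaled to the same total for this filter only, were kept. Values were log2(TPM + 1), which understates changes of low genes, and were fitted with limma 3.58.1 (R 4.3.3) with a trended prior over the 4 groups and 12 samples. The 2 LPS effects, the 2 genotype differences and the interaction were tested, two-sided, with Benjamini-Hochberg adjustment over all genes at 0.05, and a log2 fold change beyond 2 was counted separately. The fit was tested on simulated data. TMM factors (trimmed means of log ratios) were computed from the same TPM values as a scaling alternative. Alternatives changed the pseudocount, filter, scaling, weights, samples and replicate block. Shared transcript sequence was found with blastn 2.17.0.

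The members and gene lists were chosen with earlier results of these data known. From the lipid list, the 4 genes with the largest changes that passed without overlap between groups were named in each comparison, and Cebpb, Msr1 and Nceh1 were named in addition after their values were seen. Replicate numbers did not pair the samples, as the check in the closing section shows.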

Additional observations from a re-analysis of the deposited data

How the results depend on the processing

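Over the members' log2 fold changes under all alternatives, direction and side of the threshold were kept in 211 of 239 values for LPS in WT cells, 210 of 239 for LPS in cGAS-/- cells, 219 of 239 for genotype in UT, 200 of 239 for genotype with LPS and 195 of 229 for the interaction. The number of members passing, in this order 5, 5, 0, 1 and 0, was 4, 6, 1, 3 and 0 with TMM factors, 7, 6, 1, 3 and 0 with protein-coding genes only, 5, 4, 0, 2 and 0 after quantile normalization, 4, 4, 0, 0 and 0 with no filter, 6, 9, 4, 4 and 4 with weights per sample, and 2, 8, 5 and 0 in the 6 samples compared, where the interaction has no fit. With 1 sample left out at a time it ranged from 4 to 7, 4 to 8, 0 to 2, 0 to 8 and 0 to 5, the highest without WT LPS replicate 3 for the last 4, while 16.5% to 48.7%, 8.58% to 30.8%, 1.03% to 5.33%, 0.648% to 27.9% and 0.353% to 12.6% of all genes passed. The shares 48.7%, 27.9% and 12.6% arose without WT LPS replicate 2, where 7, 2 and 2 members passed. Without WT LPS replicate 3, the 8 members for genotype with LPS stood beside 8.28% of all genes and the 5 for the interaction beside 4.56%. TMM factors together with leaving out WT LPS replicate 3, an alternative chosen after seeing the data, gave 7, 8, 3, 8 and 6. The share of all genes passing moved as well, from 27.6%, 13.8%, 1.83%, 2.36% and 0.9% to 20%, 13.6%, 1.83%, 4.14% and 1.19% with TMM factors, 53.5%, 31.6%, 3.34%, 3.5% and 2.16% with protein-coding genes only, 20.6%, 15.1%, 1.89%, 4.64% and 1.27% after quantile normalization, 11.3%, 5.79%, 0.996%, 0.725% and 0.403% with no filter, 19.4%, 48.3%, 11.5%, 2.49% and 2.46% with weights, and 6.02%, 44.6%, 10.4% and 0.0421% in the 6 samples compared. With TMM factors and that sample left out it was 31.3%, 29.6%, 6.25%, 13.4% and 6.83%. The causes were not tested. With a replicate block the counts were 5, 5, 0, 0 and 0, against 24.9%, 11.9%, 1.43%, 1.51% and 0.454% of all genes. None of 18 same-numbered pairs of samples deviated together with a correlation over 0.1 (-0.0315 to 0.0383), so the numbers did not pair samples.

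Values that changed sign were these. For LPS in WT cells, Apoc1 was 0.065 with TMM factors, 0.25 after quantile normalization, 0.061 with weights per sample, 0.31 with TMM factors without WT LPS replicate 3, and -0.19 to 0.19 with 1 sample left out. Apoc2 was 0.36 with weights, 0.88 with that pair of changes and -1.56 to 0.47 with 1 sample left out. Fabp5 was 0.41 with TMM factors, 0.34 with weights, 0.78 with the pair and -0.76 to 0.37 with 1 left out, and Plin2 was 0.012 with the pair. In cGAS-/- cells Plin2 was -0.26 with protein-coding genes only. Between genotypes in UT, Fabp4 was 0.032 after quantile normalization, 0.0084 with the pair and -0.16 to 0.0115 with 1 left out. With LPS, and 1 sample left out, Apoe ranged from -1.37 to 0.0084, Apoc2 from -1.53 to 0.50 and Plin2 from -0.59 to 0.12. In the interaction, Nr1h3 was -0.066 with a pseudocount of 5, -0.35 with TMM factors, -0.24 after quantile normalization, -0.18 with protein-coding genes only, -0.31 with weights, -0.48 with the pair and -0.36 to 0.27 with 1 left out. Apoe was -0.36 with TMM factors, -0.21 with protein-coding genes only, -0.72 with weights, -0.96 with the pair and -0.84 to 0.54 with 1 left out, and Apoc2 was -0.13 with TMM factors, -0.071 after quantile normalization, -0.90 with weights, -1.11 with the pair and -0.99 to 1.04 with 1 left out.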
